A study of Saccharomyces cerevisiae with 4 samples.

Results

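The protein components of the small (40S) subunit of the cytosolic ribosome were examined in budding yeast (*Saccharomyces cerevisiae*) that carried or lacked *PUF3*, which encodes the RNA binding protein Puf3p. The set was chosen by gene name and held 57 of the 6673 genes listed for each library. It held 48 genes that form 24 A and B pairs, named from RPS0A and RPS0B to RPS30A and RPS30B, and 9 genes without a copy, among them RPS2 (YGL123W), RPS3 (YNL178W), RPS12 (YOR369C), RPS13 (YDR064W), RPS15 (YOL040C), RPS20 (YHL015W), RPS31 (YLR167W) and ASC1 (YMR116C). Together they encode 33 proteins and lie on 14 chromosomes. Messenger RNA was measured by sequencing in 2 libraries of a strain deleted for *PUF3* (*PUF3Δ*) and 2 libraries of the wild type (WT). The sources name different WT parents, BY4742 in the labels and BY4741 in the methods, and both list the mating type a and the alleles ura3Δ0, met15Δ0, leu2Δ0 and his3Δ1. Both strains were grown overnight in YPD, a glucose medium, and then in fresh YPEG, a medium with ethanol and glycerol in place of glucose, before RNA was taken and poly(A) RNA was selected on oligo-dT beads. The labels do not say whether the 2 libraries of a strain came from separate cultures, so every p-value measures the spread between these libraries, which may be technical.

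A 40S subunit carries 1 copy of each of its proteins, which fold around the 18S ribosomal RNA into a head, a body and a platform. The subunit binds the messenger RNA and reads its codons. Ribosomal protein genes are among the most strongly transcribed genes of a growing yeast cell, are known to be expressed together, and are known to be held lower on non-fermentable carbon sources than on glucose. Most of them are present as a pair of copies left by an ancient duplication of the yeast genome, and the copies of a pair encode proteins that are identical or nearly so. Puf3p binds the 3′ ends of messenger RNAs that encode mostly mitochondrial proteins, including those of the mitochondrial ribosome, and promotes their decay. The cytosolic ribosomal proteins are not known as its main targets.

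The libraries held 6703910 and 8119223 reads on listed genes in *PUF3Δ*, and 7370059 and 8228693 reads in WT. *PUF3* itself had 2 and 6 reads in the *PUF3Δ* libraries, against 569 and 761 reads in the WT libraries. *LYS2*, a lysine synthesis gene, had 1 and 4 reads in *PUF3Δ* and 1 read in each WT library, whereas *MET17* (also called *MET15*) had at least 1120 reads in every library. MF(ALPHA)1, a pheromone gene of alpha cells, had at least 5560 reads in every library. MFA1 and MFA2, the pheromone genes of a cells, had at most 10 reads. These values go against the listed mating type and the listed met15Δ0 allele in all 4 libraries alike.

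Because the copies of a pair resemble each other, the sequences themselves set how far their levels can be told apart. The coding sequences of the 24 pairs were from 84.3% (RPS27) to 99.2% (RPS6) identical. In 9 pairs, among them RPS4, RPS6, RPS16, RPS18, RPS23, RPS24 and RPS30, the encoded proteins were identical, and in 7 further pairs they differed at 1 residue. RPS28, the pair on which the largest change of a ratio was measured, is among the easiest to separate. Its copies are shown whole, 5′ to 3′, from the RefSeq sequence of build R64, with the 24 bases that differ between them in capitals (RPS28A at chrXV:648804-649007 on the minus strand, RPS28B at chrXII:673131-673334 on the plus strand, each a single exon).
RPS28A: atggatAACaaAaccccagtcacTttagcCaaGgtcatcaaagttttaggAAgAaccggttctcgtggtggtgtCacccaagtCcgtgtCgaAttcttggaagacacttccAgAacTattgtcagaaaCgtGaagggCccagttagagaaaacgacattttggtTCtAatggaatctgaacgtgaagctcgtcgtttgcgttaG
RPS28B: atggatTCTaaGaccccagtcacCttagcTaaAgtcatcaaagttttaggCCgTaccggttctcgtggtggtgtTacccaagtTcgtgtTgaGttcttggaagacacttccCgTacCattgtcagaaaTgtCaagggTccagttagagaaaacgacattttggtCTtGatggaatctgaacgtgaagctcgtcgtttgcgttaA

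At the opposite end, the RPS6 copies differed at only 6 coding bases of 711. The last 60 coding bases of RPS6A (chrXVI:377291-377350, minus strand) and RPS6B (chrII:591712-591771, minus strand) are set beside those of RPS27A (chrXI:159153-159212, plus strand) and RPS27B (chrVIII:147871-147930, minus strand), again with differing bases in capitals, to show the range.
RPS6A: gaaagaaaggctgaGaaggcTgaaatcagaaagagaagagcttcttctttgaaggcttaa
RPS6B: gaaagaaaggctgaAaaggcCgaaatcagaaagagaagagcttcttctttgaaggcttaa
RPS27A: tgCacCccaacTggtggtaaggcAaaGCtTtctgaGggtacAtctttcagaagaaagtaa
RPS27B: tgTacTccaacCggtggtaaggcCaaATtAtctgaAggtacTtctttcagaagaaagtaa
The RPS6 ends differed at 2 bases and the RPS27 ends at 9. Reads were mapped with up to 2 mismatches, so a read that covers 2 or fewer such differences also matched the other copy. The read length was not given in the sources used here. For a window of 36 nt, every position of the RPS6 coding sequence matched the other copy within 2 mismatches, and so did 96.0% of RPS4, 88.1% of RPS23 and 87.7% of RPS24. The share was 7.01% in RPS27 and 2.37% in RPS28, and it was over 50% in 13 of the 24 pairs. How reads with several matches were counted was not given either, so the division of reads within those 13 pairs is uncertain.

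The deposited values were RPKM, reads per kilobase of the listed interval, scaled to the total reads of the library. In 37 of the 57 genes the R64 annotation has an intron within the coding sequence, and in these the listed interval was the whole gene with its intron for 23 genes and the last coding exon alone for 14. An intron that is spliced out adds length but few reads, and lowers RPKM. Sums over the copies of a pair, and the shares of the copies, are therefore given as exon-scaled RPKM. For this, RPKM was rescaled from the length of the listed interval to the length of the coding exons inside it. Rankings of single genes by RPKM used RPKM as deposited and carry this limit. Between strains the length cancels, and RPKM as deposited was used. RPS2 and RPS27A each overlap another listed gene, so their reads cannot be assigned with certainty.

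Every one of the 57 genes was lower in *PUF3Δ* than in WT on RPKM as deposited, and all but 1 were lower after the libraries were rescaled to the median of the ratios over genes. The 57 genes took 2.22% and 2.31% of all reads in the *PUF3Δ* libraries, against 4.93% and 4.43% in the WT libraries. The libraries of the strains did not overlap, and the mean share was 2.26% ± 0.0602 in *PUF3Δ* and 4.68% ± 0.358 in WT (SD, n = 2 each), a ratio of 0.484 (two-sided exact permutation test, p = 0.333, the smallest p that 2 against 2 libraries allow). A share of the reads is a share of the RNA pool, and in a bulk culture fewer cells that express a gene and less RNA per cell cannot be told apart.

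Across all genes, limma on log2(RPKM + 1) called 3175 of 5860 genes tested lower in *PUF3Δ* (54.2%) and 1108 higher (18.9%) at a Benjamini-Hochberg adjusted p under 0.05. All 57 genes of the 40S subunit were tested, and 57 were lower and 0 higher. The *PUF3Δ* libraries both lay below both WT libraries in all 57, as they did in 62.6% of all genes tested. The median log2 fold change of the 57 genes was −1.19 (quartiles −1.39 and −0.87), while that of all genes tested was −0.39 (quartiles −0.89 and 0.13). By mean RPKM, 37 of the 57 genes were at least 2-fold lower in *PUF3Δ*, and 6 were less than 1.5-fold lower. No all-gene share is given beside these counts. Since 54.2% of genes were lower, the scaling was also varied. After median-of-ratios scaling the all-gene median moved to −0.01, 33.2% of genes were called lower and 33.9% higher, and of the 57 genes 51 were called lower and 0 higher. Within WT, 49 of the 57 genes were lower in replicate 2 than in replicate 1, and RPS27A was among those that were not. The median log2 ratio of replicate 1 to replicate 2 over all 57 genes was 0.16 in WT. No all-gene value is given beside this median or beside the count of 49, so neither is particular to these genes.

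**Figure D1:**
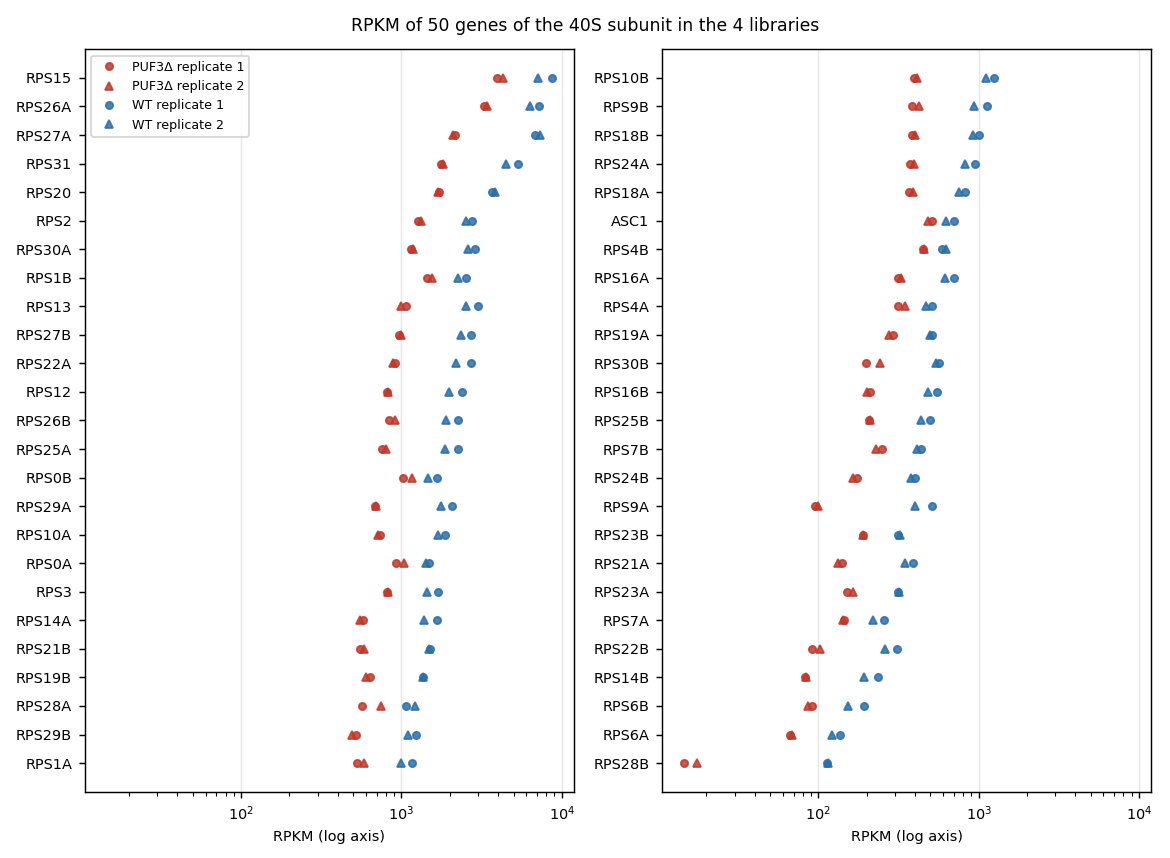
RPKM of 50 of the 57 genes in each of the 4 libraries, on a log axis, with genes in rows and *PUF3Δ* and WT libraries in different colours. On this scale both *PUF3Δ* points lie left of both WT points in all 50 rows, and the gap is widest for RPS28B.

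The 9 genes without a copy have no paralog to share reads with. RPS15 (uS19), a head protein needed for export of the precursor subunit from the nucleus, had the highest level of all 57, with 3956 and 4316 RPKM in *PUF3Δ*, against 8663 and 7106 RPKM in WT. RPS31, made as a fusion with ubiquitin, had 1775 and 1817 RPKM in *PUF3Δ*, against 5299 and 4493 RPKM in WT. Both genes were lower in *PUF3Δ*, with log2 fold changes of −1.44 (RPS31, SE 0.10) and −0.92 (RPS15, SE 0.12).

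RPS3 (uS3) and RPS2 (uS5) sit at the entry of the mRNA channel. RPS3 had 815.9 and 827.6 RPKM in *PUF3Δ*, against 1684 and 1433 RPKM in WT. RPS2 had 1263 and 1325 RPKM in *PUF3Δ*, against 2765 and 2532 RPKM in WT. Their log2 fold changes, −0.92 (RPS3, SE 0.10) and −1.03 (RPS2, SE 0.08), lay close to each other. RPS20 (uS10), a head protein that is tagged with ubiquitin when ribosomes collide, had 1707 and 1683 RPKM in *PUF3Δ*, against 3695 and 3813 RPKM in WT. RPS12 (eS12), at the beak of the head, had 810.9 and 827.2 RPKM in *PUF3Δ*, against 2383 and 1977 RPKM in WT. RPS13 (uS15), a body protein that faces the large subunit, had 1069 and 995.2 RPKM in *PUF3Δ*, against 3006 and 2510 RPKM in WT. The fall was of like size in RPS12 (−1.40, SE 0.10) and RPS13 (−1.41, SE 0.11) and was −1.15 in RPS20 (SE 0.08).

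ASC1, the yeast counterpart of the scaffold protein RACK1, binds the head near the mRNA exit and is not essential for growth. It had 511.7 and 480.6 RPKM in *PUF3Δ*, against 703.1 and 628.6 RPKM in WT. Its log2 fold change of −0.42 (SE 0.09, limma adjusted p = 0.00353, Benjamini-Hochberg) was the smallest fall among the 9 genes without a copy, whose median was −1.03. After median-of-ratios scaling it was −0.03, and no longer called.

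Among the paired genes, RPS28B (eS28, at the mRNA exit) had the largest fall. RPS28B (YLR264W) had 14.6 and 17.4 RPKM in *PUF3Δ*, against 112.5 and 115.6 RPKM in WT, from 20 and 29 reads in *PUF3Δ* and 170 and 195 reads in WT. Its log2 fold change was −2.76 (SE 0.11, limma adjusted p = 8.73e-06, Benjamini-Hochberg). The counting error of so few reads is larger than this SE. RPS28A (YOR167C), which encodes the same protein but for 1 residue, had 563.2 and 748.6 RPKM in *PUF3Δ*, against 1063 and 1220 RPKM in WT, a log2 fold change of −0.81 (SE 0.14). The 2 *PUF3Δ* libraries differed more from each other in RPS28A than in most other genes of the set, yet both stayed below WT. RPS28B was also the lowest of the 57 genes in mean RPKM.

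RPS9A (YPL081W, uS4, a body protein that shapes decoding accuracy, annotated in R64 at chrXVI:404950-406044 with 2 coding exons, of which the last alone was listed) had 95.9 and 98.9 RPKM in *PUF3Δ*, against 514.4 and 399.7 RPKM in WT. It fell by 2.21 on the log2 scale (SE 0.12). RPS27A (YKL156W, eS27, a zinc-finger protein of the platform, annotated in R64 at chrXI:158613-159212 with 2 coding exons, of which the last alone was listed) had 2157 and 2082 RPKM in *PUF3Δ*, against 6806 and 7340 RPKM in WT. It fell by 1.74 (SE 0.08), the largest fall among the 5 genes with the highest RPKM (RPS15, RPS26A and RPS31 also among them). RPS10B (YMR230W, eS10, at the beak) had 392.9 and 410.9 RPKM in *PUF3Δ*, against 1238 and 1109 RPKM in WT. RPS22B (YLR367W, uS8, in the body) had 91.7 and 101.8 RPKM in *PUF3Δ*, against 308.3 and 258.8 RPKM in WT. RPS10B and RPS22B each fell by 1.54 (SE 0.08 and 0.11). RPS28B has no intron, while RPS9A, RPS27A, RPS10B and RPS22B each have one.

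Besides ASC1, small falls were measured in RPS4B (YHR203C, eS4, −0.42, SE 0.07), RPS0B (YLR048W, uS2, −0.53, SE 0.10) and RPS4A (−0.56, SE 0.09), with RPS0A (−0.57, SE 0.09) close by. RPS4B had 452.4 and 454.5 RPKM in *PUF3Δ*, against 589.9 and 627.3 RPKM in WT. RPS0B had 1017 and 1156 RPKM in *PUF3Δ*, against 1678 and 1458 RPKM in WT, and RPS4A had 315.1 and 348.6 RPKM in *PUF3Δ*, against 511.3 and 471.0 RPKM in WT. These 4 genes kept a negative fold change after median-of-ratios scaling but were no longer called. With ASC1 they made 5 of the 6 genes that lost the call there.

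RPS26A (YGL189C, eS26, at the mRNA exit) was high in all libraries, with 3263 and 3406 RPKM in *PUF3Δ*, against 7199 and 6295 RPKM in WT. At the low end of RPKM as deposited, besides RPS28B, stood RPS6A, RPS6B and RPS14B. RPS6A (YPL090C, eS6, which is phosphorylated downstream of the TOR kinase) had 66.6 and 68.4 RPKM in *PUF3Δ*, against 135.5 and 121.5 RPKM in WT. RPS6B had 91.2 and 86.6 RPKM in *PUF3Δ*, against 193.2 and 152.9 RPKM in WT. RPS14B (YJL191W, uS11, in the platform) had 82.5 and 83.5 RPKM in *PUF3Δ*, against 234.4 and 192.3 RPKM in WT. The place of RPS14B depended on the scale, as its listed interval held its intron. On exon-scaled RPKM its mean over the 4 libraries was 293.5, above those of RPS9A (277.7) and RPS24B (281.8). In the ranking of all genes by mean RPKM, 7 of the 57 genes were among the 100 highest in *PUF3Δ*, against 19 in WT.

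The size of the fall differed little between the structural groups. The median log2 fold change was −1.20 in the 23 genes of head proteins and −1.11 in the 34 genes of body and platform proteins. It was −1.17 in the 24 genes whose proteins have a bacterial counterpart and −1.19 in the 33 that have none. The 48 paired genes had a median of −1.20. The 81 genes of the large (60S) subunit moved in the same direction, with 79 of 81 lower, 0 higher and a median of −1.05, and their share of the reads was 2.99% ± 0.0597 in *PUF3Δ* and 6.04% ± 0.451 in WT (SD, n = 2 each), a ratio of 0.495.

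Fold change differed more by the length of the gene. The median was −1.38 in the 10 genes with up to 300 coding nt, −1.24 in the next 25 genes, of up to 450 nt, −1.33 in the next 8, of up to 600 nt, and −0.65 in the 14 longer genes. Across the 57 genes, Spearman's rho between fold change and coding length was 0.62 (n = 57 genes of the same 4 libraries, a description with no test). With the length of the listed interval the rho was 0.43 across the 57 genes and 0.35 across the 5860 genes tested. A loess fit then removed the trend with the length of the listed interval and with GC content over all genes. It did not use coding length, by which the classes are set. After this fit the class medians were −1.20, −1.02, −1.25 and −0.62 from the shortest class to the longest. Of the 57 genes 56 were then lower and 0 higher (55.5% and 16.7% of all genes). The part of length in the fall was not tested beyond this fit. With mean RPKM the fold change of the 57 genes had a rho of −0.10.

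**Figure D2:**
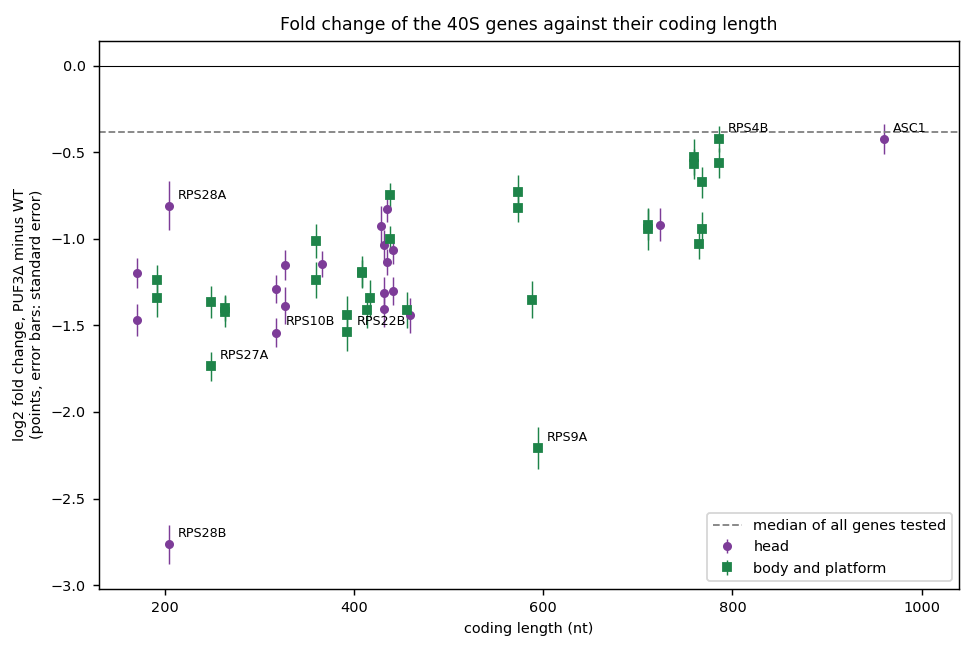
Log2 fold change of *PUF3Δ* over WT (vertical axis) against coding length in nt (horizontal axis) for 50 of the 57 genes, with SE bars, circles for head proteins, squares for body and platform proteins and a dashed line at the median of all genes tested (−0.39). Over all 57 genes, the 14 longer than 600 nt have a median of −0.65 and the 10 of up to 300 nt a median of −1.38.

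Since a 40S subunit holds each protein once, the levels of the 33 proteins' messages were compared with each other after adding both copies of a pair, on the exon-scaled RPKM. On the deposited scaling all 33 sums were lower in both *PUF3Δ* libraries than in both WT libraries, beside 62.6% of all single genes tested. Of the sums, 21 were below 0.5 of the WT mean, a count with no all-gene share to set beside it. RPS26 was highest over the 4 libraries, with 4218 ± 148 in *PUF3Δ* and 8837 ± 895 in WT. RPS27 had 3125 ± 38.7 in *PUF3Δ* and 9681 ± 141 in WT, so RPS27 stood above RPS26 in WT and below it in *PUF3Δ*, and its ratio of 0.32 was the lowest of the 33. RPS9 (0.35) and RPS22 (0.36) followed. High ratios were those of ASC1 (0.75), RPS4 (0.71) and RPS0 (0.68). RPS6 was the lowest sum, with 157.1 ± 1.99 in *PUF3Δ* and 302.9 ± 38.5 in WT (SD, n = 2 each for all of these).

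**Figure D3:**
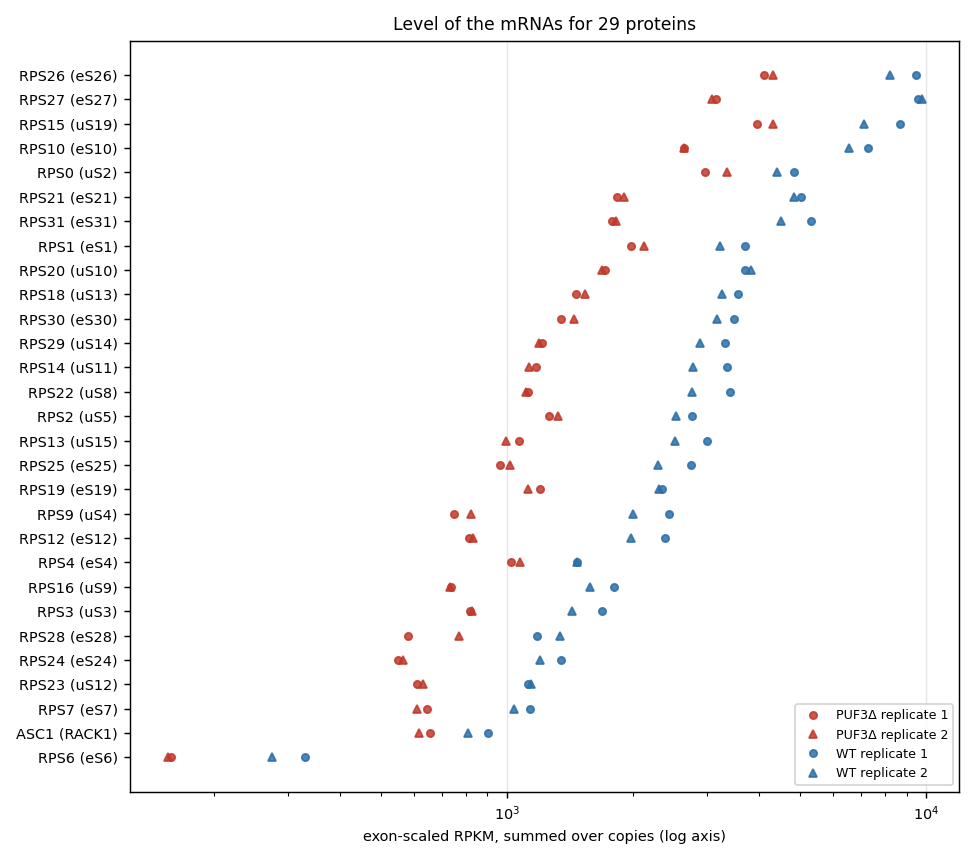
Summed exon-scaled RPKM of both copies for 29 of the 33 proteins in each library, on a log axis, with proteins ordered by level. RPS6 is lowest (157.1 in *PUF3Δ* and 302.9 in WT), and the highest mean is that of RPS26 in *PUF3Δ* (4218) and of RPS27 in WT (9681). On the deposited scaling both *PUF3Δ* libraries lie below both WT libraries for all 29, beside 62.6% of all single genes tested.

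The spread of levels within the subunit was expressed as the coefficient of deviation (CD), the standard deviation divided by the mean. Over the RPKM of the 57 genes as deposited the CD was 1.06 and 1.08 in *PUF3Δ*, against 1.07 and 1.07 in WT, and the strains overlapped (two-sided exact permutation test, p = 1). On exon-scaled RPKM the CD of the 57 genes was 0.897 and 0.917 in *PUF3Δ*, against 0.906 and 0.913 in WT, and the strains again overlapped. Over the 33 sums it was 0.661 and 0.683 in *PUF3Δ*, against 0.693 and 0.703 in WT, which did not overlap (exact permutation p = 0.333, the smallest possible). The highest sum was 26.0-fold and 27.8-fold the lowest in *PUF3Δ*, against 29.03-fold and 35.5-fold in WT.

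Within pairs, 1 copy was usually the higher in YPEG, though often by little, and the order was nearly always shared by all libraries. On exon-scaled RPKM the A copy was higher in all 4 libraries in 13 pairs and the B copy in 9, while RPS0 and RPS18 had a mixed order. In 13 of the 24 pairs the copies were over 2-fold apart. These orders carry the limit that the division of reads is uncertain in pairs with over 50% of windows shared. On RPKM as deposited A was higher in 14 pairs, B in 9, and RPS23 was mixed. The order of 4 pairs (RPS0, RPS16, RPS18 and RPS23) depended on this choice. In RPS16 (uS9, whose tail reaches the tRNA in the head) the interval was the last exon for A and the whole gene for B. RPS16A was the higher copy as deposited, and RPS16B was 1.41-fold higher once exons alone were counted.

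The most unequal pair was RPS28. RPS28A made up 97.5% and 97.7% of the pair's exon-scaled RPKM in *PUF3Δ*, against 90.4% and 91.3% in WT. In RPS14 the A copy held 86.1% and 85.4% in *PUF3Δ*, against 86.2% and 86.3% in WT. RPS30A (eS30, near the mRNA entry) held 85.3% and 83.0% of its pair in *PUF3Δ*, against 83.6% and 82.7% in WT. In these 3 pairs the A copy dominated in both strains.

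The B copy dominated in RPS9 (5.19-fold) and RPS21 (5.07-fold). RPS9A held 12.85% and 12.03% of the RPS9 sum in *PUF3Δ*, against 21.1% and 20.0% in WT, and RPS21A (eS21, beside RPS0 in the body) held 17.1% and 15.5% in *PUF3Δ*, against 17.3% and 15.9% in WT. The RPS9 intervals were unlike, as in RPS16, so its order also was read on exons. At the other extreme, RPS0A held 49.6% and 49.3% in *PUF3Δ*, against 49.0% and 51.3% in WT, and RPS18A (uS13, which contacts the large subunit) held 49.9% and 50.2% in *PUF3Δ*, against 46.1% and 45.8% in WT. RPS23A (uS12, at the decoding centre) held 42.8% and 45.1% in *PUF3Δ*, against 48.7% and 48.0% in WT. The copies of these 3 pairs were the nearest to equal.

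**Figure D4:**
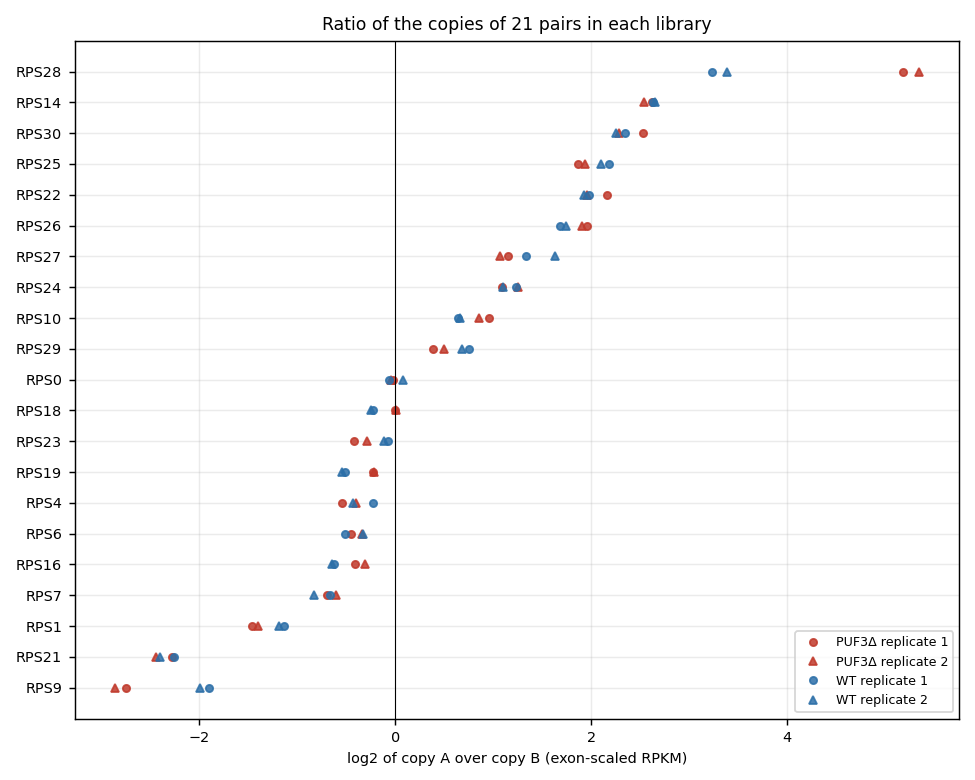
Log2 of the A over the B copy (exon-scaled RPKM) for 21 of the 24 pairs in each of the 4 libraries, with a line at equal levels. RPS28 and RPS14 lie furthest towards A, RPS9 and RPS21 furthest towards B, and RPS0, RPS18 and RPS23 near the line. The strains are visibly apart in RPS28 and RPS9.

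A ratio of A to B within a library does not depend on how the library was scaled, so its shift between strains was tested as the difference of log2(A/B). Here 1 was added to each value before log2(A/B) was taken. That brings in some dependence on scaling and draws the ratio towards equal where a copy is low, as in RPS28B. The test used RPKM as deposited, since the length of the intervals cancels between strains, and the ratios of single libraries are given on exon-scaled RPKM. Among all 61 gene pairs whose names end in A and B, 62.3% had a shifted ratio (limma, Benjamini-Hochberg adjusted p under 0.05). The 61 are the 24 pairs themselves, 35 pairs of the 60S subunit and 2 others. Shares over the 61 are thus almost wholly those of ribosomal protein pairs. Of the 24 pairs of the 40S subunit 14 were shifted, 8 towards A and 6 towards B, and of the 35 of the 60S subunit 22. The ratios of the strains did not overlap in 16 of the 24, against 77% of the 61. The shifts of the 24 pairs were mostly small, with a median absolute size of 0.24 on the log2 scale.

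The largest was RPS28. Its log2(A/B) was 5.18 and 5.35 in *PUF3Δ*, against 3.23 and 3.39 in WT, a shift of 1.96 towards A (SE 0.09, limma adjusted p = 1.04e-15, Benjamini-Hochberg). RPS28B had only 20 and 29 reads in *PUF3Δ*, and the SE draws on the variance of all pairs tested. The SE and p therefore understate the counting error of this shift. RPS9 moved the other way. Its log2(A/B) was −2.75 and −2.86 in *PUF3Δ*, against −1.90 and −1.99 in WT, a shift of −0.86 (SE 0.08, limma adjusted p = 5.07e-09). In both pairs the copy that was already lower in WT was lower still in *PUF3Δ* relative to its partner. Both stayed under an adjusted p of 0.05 in every alternative run, with a highest limma adjusted p of 0.000129 (RPS28) and 0.00384 (RPS9), as did 1 other of the 14 pairs. One 60S pair, RPL22, had a shift of 2.22, as large as that of RPS28.

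Other shifted pairs moved by less. RPS27 shifted by −0.37 (SE 0.09), with a log2(A/B) of 1.15 and 1.07 in *PUF3Δ*, against 1.33 and 1.64 in WT. RPS19 (eS19, a head protein) shifted by 0.31 (SE 0.08), with −0.22 and −0.21 in *PUF3Δ*, against −0.51 and −0.54 in WT. Shifts in RPS1, RPS10, RPS16, RPS18, RPS23, RPS25, RPS26 and RPS29 had sizes from 0.23 to 0.27. With any 1 library left out, the count of shifted pairs was 3 to 6: it was 3 without *PUF3Δ* replicate 1, without *PUF3Δ* replicate 2 or without WT replicate 2, and 6 without WT replicate 1.

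The 10 pairs that did not pass the test had shifts from −0.14 (RPS4, SE 0.09) to 0.11 (RPS30, for example, with an SE of 0.09). The shift was 0.01 in RPS24, 0.03 in RPS6, −0.03 in RPS21 and −0.04 in RPS0, each with an SE of 0.08 to 0.09. In RPS4, RPS6 and RPS24 over 87% of the coding windows were shared between the copies, so a shift in these could be blurred. The same limit holds for shifted pairs with many shared windows, such as RPS23 (88.1%). Of the 13 pairs with over 50% of windows shared 8 were shifted, 7 of them towards A, and of the other 11 pairs 6 were shifted, 5 of them towards B. Across the 24 pairs the absolute shift and the percentage of shared windows had a rho of −0.15 (n = 24, a description).

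**Figure D5:**
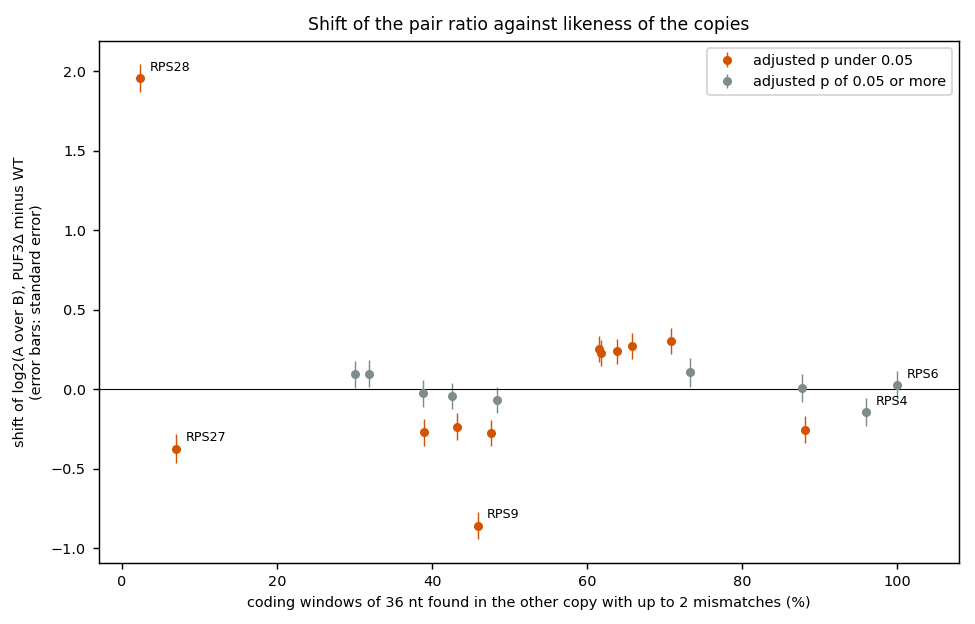
Shift of log2(A/B), *PUF3Δ* minus WT, against the percentage of 36-nt coding windows that match the other copy within 2 mismatches, for 21 of the 24 pairs, with SE bars and pairs under an adjusted p of 0.05 marked. RPS28 (1.96) lies at 2.37% shared and RPS6 (0.03) at 100% shared.

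The level of a pair also went with how alike its copies are. The summed exon-scaled RPKM had a median of 878.6 in the 5 pairs with over 80% of windows shared (among them RPS4, RPS6, RPS23 and RPS24), 1747 in all 13 pairs with over 50% shared, 2110 in the 11 others and 1974 in the 9 genes without a copy. Across the 24 pairs the sum and the shared percentage had a rho of −0.36 (n = 24, a description). Whether reads that match both copies were left out, and their part in the low levels of RPS6, RPS23 and RPS24, was not tested.

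Short sequence elements near the 57 genes were counted in the R64 sequence. The element bound by Puf3p, searched as TGTANATA on the coding strand within 200 nt after the stop codon, was found at 2 of the 57 genes (3.51%), at 4 of 81 genes of the 60S subunit (4.94%) and at 840 of 5972 genes overall (14.1%). The 2 matches are shown with 4 flanking bases on each side and the element in capitals; they start 55 nt after the stop codon of RPS14A (chrIII:177434-177449, minus strand) and 139 nt after that of RPS4A (chrX:701877-701892, minus strand).
RPS14A: aatgTGTACATAtaat
RPS4A: tgtgTGTATATAtatc
RPS14A fell by 1.41 on the log2 scale (SE 0.10) and RPS4A by 0.56 (SE 0.09), values that lie on either side of the median of the 57 genes.

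Rap1, which binds upstream of most ribosomal protein genes, has a core searched here as ACCCNNACA on both strands within 500 nt before the start codon. It was found at 18 of the 57 genes (31.6%), at 36 of 81 genes of the 60S subunit (44.4%) and at 326 of 5972 genes overall (5.46%). Matches at the B copy of 2 pairs and at the A copy of RPS24 are shown as examples, with the core in capitals, as RPS10B (chrXIII:732220-732236, minus strand) was among the genes with the largest falls (−1.54) and RPS23B (chrXVI:794653-794669, plus strand) and RPS24A (chrV:305983-305999, plus strand) had smaller ones (−0.75 and −1.19).
RPS10B: atacACCCACACAtgcg
RPS23B: aaacACCCATACAtatt
RPS24A: gtacACCCACACAttta
A match is a description of these letters in this window, and genes without one may hold other forms of the site.

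Genes that act on the subunit were compared from lists. Of 7 regulators of ribosomal protein genes, 2 were lower in *PUF3Δ*, 1 was higher and 4 did not pass the test, beside 54.2% lower and 18.9% higher among all genes. These counts moved with the processing: 5 were lower and 1 higher after the loess fit, and 1 was lower and 3 higher after quantile normalization or median-of-ratios scaling. HMO1, which binds many ribosomal protein promoters, had 243.7 and 263.9 RPKM in *PUF3Δ*, against 538.7 and 468.6 RPKM in WT (−0.98, SE 0.09). IFH1, the coactivator of these promoters, had 43.0 and 38.2 RPKM in *PUF3Δ*, against 55.5 and 70.0 RPKM in WT (−0.61, SE 0.13), and was no longer called after median-of-ratios scaling. CRF1, a corepressor that competes with Ifh1, had 21.0 and 17.0 RPKM in *PUF3Δ*, against 12.7 and 14.0 RPKM in WT (0.47, SE 0.15, limma adjusted p = 0.0226, Benjamini-Hochberg), and was no longer called without the filter on low values or without *PUF3Δ* replicate 1. RAP1 (−0.01), FHL1 (0.07), SFP1 (−0.25) and SCH9 (0.07) did not pass the test, although RAP1 and SCH9 were called higher under median-of-ratios scaling.

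Of 5 dedicated assembly factors of the 40S subunit, 4 were lower in *PUF3Δ*, beside 54.2% of all genes, and LTV1 did not pass the test (−0.22, SE 0.11). After median-of-ratios scaling 2 of the 5 were lower, beside 33.2% of all genes. FAP7, an ATPase that helps RPS14 into the subunit, had 28.1 and 33.3 RPKM in *PUF3Δ*, against 64.1 and 58.4 RPKM in WT (−0.98, SE 0.12). YAR1, the chaperone of RPS3, fell by 0.71 (SE 0.09), TSR2, the chaperone of RPS26, by 0.71 (SE 0.14), and TSR4, the chaperone of RPS2, by 0.43 (SE 0.10). TSR2 and TSR4 were no longer called after median-of-ratios scaling.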

How the data were processed

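The authors mapped reads to the *S. cerevisiae* genome with SOAP2, allowing up to 2 mismatches, and deposited 1 RPKM value per listed gene interval and library; the submitters' processing notes name build R64. Read length, strand and the handling of reads with several matches were not given in the sources used here. RPKM times the interval length (end − start + 1) was a whole multiple of the worth of 1 read for 100% of values, within a tolerance of 0.1 reads, and read totals came from this. Depth was 6703910 to 8228693 reads per library, and each value carries counting error besides.

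Strains were compared with limma 3.58.1 (R 4.3.3) (moderated variances with a trend) on log2(RPKM + 1), keeping genes that averaged at least 1 RPKM over the 4 libraries, Benjamini-Hochberg adjusted over all genes tested and called under 0.05. A fold change on this scale is understated for low genes. Ratios of pairs were taken as log2 of (RPKM A + 1) over (RPKM B + 1). These ratios were tested with limma without a trend over all 61 A and B pairs, and single values by an exact two-sided permutation test. Both fits were tested on simulated data, but the outcome is not given here and no support for the p-values is drawn from it. Coding sequences, exons, windows and motifs came from RefSeq R64 (Python 3.11.15, Biopython 1.88). Genes were matched by ID, because listed intervals ended up to 358 nt away from the RefSeq R64 positions. Of the 43 genes of the set listed whole, 10 ended at the RefSeq R64 position. Whether this offset touched the counts, in short genes above all, was not tested. Every coordinate given is that of RefSeq R64.

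The genes, lists and tests were chosen with earlier results of these data known. Genes described one by one were the 5 highest and 5 lowest by mean RPKM, the 5 with the largest and the 5 with the smallest fold change, the 9 without a copy, and, of the pairs, the 6 most unequal, the 3 nearest to equal and the 6 with the largest shift, except that some genes and pairs are not reported here one by one or plotted and enter counts and medians alone; others are examples chosen after their values were seen. The alternatives were other pseudocounts, filters, scalings, a loess fit for length and GC content, a replicate block, leaving out overlapping genes or each library, and leaving out the most alike pairs, which was added after seeing the data. Exon-scaled RPKM, RPKM rescaled to the coding exons inside the listed interval, was also added then. It is the scale of the sums over pairs and of the shares of the copies. Rankings of single genes by mean RPKM, and the rho with mean RPKM, used RPKM as deposited. Scaling to all coding exons was planned, and gave the same count of pairs with A higher (13). The unit of the files did not allow a count test.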

Additional observations from a re-analysis of the deposited data

How the results depend on the processing

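The 57 genes were lower in *PUF3Δ* in 57 of 57 cases with a pseudocount of 0.1 or 10, without a filter, with a filter at a mean RPKM of 10, with rescaling to reads outside ribosomal protein genes and with the replicate block. The count was 56 after quantile normalization or the loess fit, 51 after median-of-ratios scaling, 55 of 55 with overlapping genes left out, and 56 to 57 with 1 library left out. 1 gene reversed, to 0.10, under median-of-ratios scaling, where 5 others (RPS0A, RPS0B, RPS4A, RPS4B and ASC1) lost the call. Over all genes the main fit gave 1108 higher and 3175 lower, median-of-ratios scaling 1983 higher and 1942 lower, and quantile normalization 1869 higher and 2003 lower. Shifted 40S pairs numbered 14 in the main test, with the pseudocount of 0.1, with ribosomal protein pairs alone and with the replicate block, 12 with a variance trend (RPS23 and RPS26 lost), 6 of 11 with the alike pairs left out, a choice made after seeing the data, and 3 to 6 with 1 library left out. Without 1 library the shifts ran from −0.001 to 0.20 for RPS22, −0.016 to 0.23 for RPS30, −0.064 to 0.12 for RPS6, −0.11 to 0.058 for RPS21, −0.072 to 0.089 for RPS24 and −0.11 to 0.026 for RPS0, so the direction of these 6 depended on a library. The ratio of the 40S share of reads, 0.484, ran from 0.459 to 0.512 without 1 library. The labels give the replicates of each strain a number and state no pairing between strains. Deviations of same-numbered libraries had a correlation of −0.014. With 2 libraries per strain this value cannot show whether they were handled as pairs. The replicate block changed no call among the 57 genes or the 24 pairs. With 20 to 195 reads, RPS28B was the gene of the set that counting error limited most.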
